A study of Mus musculus with 17 samples.

Results

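The genes that encode the proteins of the cytosolic ribosome were examined in MC38 tumors that had not been frozen themselves. They were chosen by name: a gene of the deposited table belonged to the set when its symbol was Rpl, Rps or Rplp followed by a number and at most the endings a, x, l or a further digit. This rule found 83 of 21931 genes, 52 of the large subunit and 31 of the small subunit, and used no measured value. In each tumor the reads on these genes were compared between the control and cryoablation groups and related to the gene length listed in the same table.

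MC38 is a mouse colon cancer line. Wild-type C57BL/6J mice aged 6 to 8 weeks received the cells subcutaneously on the left and right. In the cryoablation group the tumor of one side was frozen on day 7 by a cryoprobe, with 2 freezing cycles (the labels give 20 s each, which differs from the study's methods), and the opposite tumor was taken 5 days later. The control group had no ablation. The labels name 9 control tumors and 8 cryoablation tumors. The study's text gives the group sizes the other way round. The labels were followed here, and every direction below rests on them. They do not say whether the tumors of a group came from separate animals, so the p-values below measure the spread between these tumors. Each tumor is a mix of MC38 cells and host cells. In such bulk RNA, fewer cells of a type and less RNA per cell cannot be told apart.

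The ribosome makes all cellular protein. Its small subunit reads the mRNA and its large subunit joins the amino acids, and most of the proteins are needed in equal copies. Most of the mRNAs for these proteins start with a C followed by a run of pyrimidines, the terminal oligopyrimidine (TOP) tract, through which mTOR signaling and Larp1 control their translation together. Growing tumor cells hold many ribosomes, and these mRNAs are abundant and short.

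The sequences around the annotated transcript starts are shown because this tract is the feature that the genes share. Of the 83 genes, 63 had a promoter entry in RefSeq under the same symbol (build GRCm38.p6). A run of at least 8 pyrimidines that began with C, between 20 bases before and 50 bases after the start on the sense strand, was found in 49 of them (77.8%), against 22.7% of 27025 genes with an entry. In the lines below the capitals mark the longest such run, or the longest shorter run where none reached 8. The first 4 genes are those with a log2 fold change over 1, Rps6 and Rpl4 have long reading frames, Rps15a has the greatest listed length and Rpl7l1 the smallest fold change.
Rpl35 (chr2:39005115-39005144, minus strand): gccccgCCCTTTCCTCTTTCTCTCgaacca
Rpl41 (chr10:128549119-128549148, minus strand): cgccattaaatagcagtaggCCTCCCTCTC
Rpl38 (chr11:114668569-114668598, plus strand): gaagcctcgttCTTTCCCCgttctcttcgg
Rps21 (chr2:180257399-180257428, plus strand): ggaggcacgagctaCTTCCTTTCTgcgctc
Rps6 (chr4:86857349-86857378, minus strand): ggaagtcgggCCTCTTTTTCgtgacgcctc
Rpl4 (chr9:64173405-64173434, plus strand): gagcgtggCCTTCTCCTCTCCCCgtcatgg
Rps15a (chr7:118116138-118116167, minus strand): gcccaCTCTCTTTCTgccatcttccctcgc
Rpl7l1 (chr17:46782647-46782676, minus strand): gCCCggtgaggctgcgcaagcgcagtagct

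The run of Rpl38 began on the annotated first base. That of Rps6 began 1 base before it, that of Rpl35 7 bases before it and that of Rps15a 15 bases before it. Those of Rpl4, Rps21 and Rpl41 began at bases 27, 35 and 41 of the annotated transcript, so that they are pyrimidine runs inside it and not at its start. Rpl7l1, an Rpl7 relative that works in ribosome assembly, had no run longer than 3. Of the other letters searched on both strands of the 300 bases around the start, 250 before and 50 after, CTTCCG was found in 66.7% of the 63 genes against 18.8% of all genes, GGGCGG in 61.9% against 38.2%, AAGATGG in 15.9% against 7.28%, TATAAA in 11.1% against 15.7% and CACGTG in 9.52% against 8.09%. A match is only a match of letters.

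Total counts lay between 13524899 and 17898672. The limit of detection used here was 3 reads of a gene. By total counts alone these gave 0.168 to 0.222 CPM (the count scaled to a common library total). The other CPM values are also scaled by TMM factors, so this range does not apply to them directly. On the TMM scale 1 read of Rpl39l was 0.0507 CPM in control 3 and 0.0965 CPM in cryoablation 5. Of the 7 colon epithelium markers, Cdx2, the intestinal transcription factor, had 0 counts in all 17 tumors, Vil1 at most 11 counts and Krt20 at most 7. The adhesion protein Cdh1 was detected in each tumor (5.31 to 26.2 CPM), Epcam reached 8.67 CPM, and the keratins Krt8 and Krt18 were at 0 in the lowest tumor and reached 58.8 and 54.8 CPM in the highest. The labels call the line mesenchymal.

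The ribosomal protein genes took a larger share of the reads in 5 tumors, 3 of the cryoablation group and 2 of the control group. Among control tumors the share of all counts on the 83 genes was 5.32% at the lowest, 6.37% at the median and 11.6% at the highest. Among cryoablation tumors it was 5.37%, 8.23% and 16.5%. The highest 5 tumors were cryoablation 5 (16.5%), 4 (14.7%) and 2 (14.1%) and control 5 (11.6%) and 1 (10.9%), whereas the other 12 lay between 5.32% and 8.49%. The group means were 7.32% ± 2.31 (SD, n = 9) in control and 9.79% ± 4.59 (SD, n = 8) in cryoablation tumors, and the groups overlapped over most of their range.

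**Figure D1:**
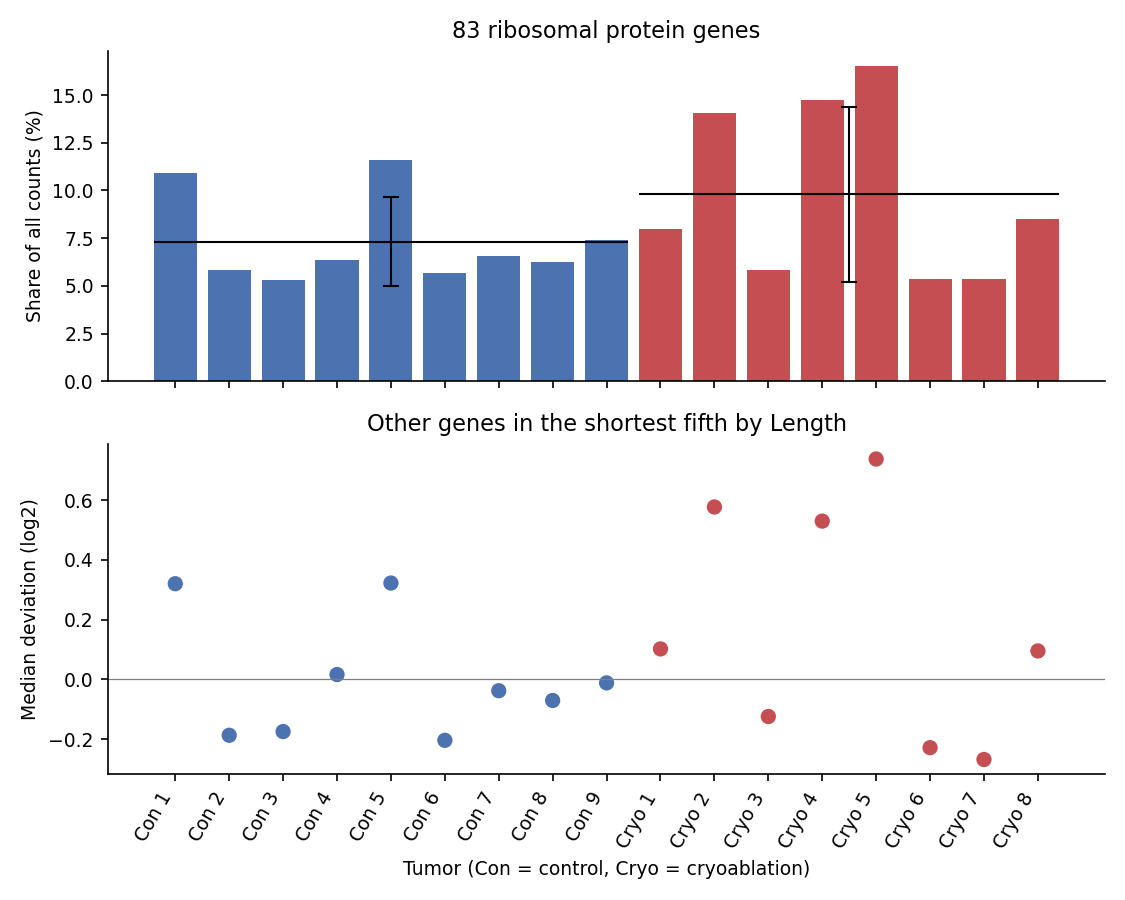
Upper panel: share of all counts (%) on the 83 ribosomal protein genes in each tumor (blue control, red cryoablation), with the group mean as a line and the SD as an error bar. Lower panel: for the other genes in the shortest 20% by listed length, the median deviation of log2 CPM from the mean of the control tumors. The tumors above 10% in the upper panel, control 1 and 5 and cryoablation 2, 4 and 5, are also the highest 5 in the lower panel.

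The same 5 tumors had high levels of short genes in general. Deviations were taken on the log2 scale from the mean of the control tumors. For the genes outside the set among the shortest 20% by listed length (at most 2520 bases), the median deviation was 0.74 in cryoablation 5. It was 0.58 in cryoablation 2, 0.53 in cryoablation 4 and 0.32 in control 5 and in control 1. It was at most 0.10 in the other 12 tumors. The corresponding median for the ribosomal protein genes was 1.73, 1.34, 1.43, 0.90 and 0.70. Every one of the 79 tested members was above its control mean in each of these 5 tumors. In cryoablation 1 and 8 this held for 78 members each and in control 9 for 58, while it held for at most 15 in the remaining tumors. The share of counts on genes of the mitochondrial genome was lowest in cryoablation 4, 5 and 2 (0.88% to 1.02%, against 1.19% to 1.59% in the other 14), and the TMM scaling factor was lowest in cryoablation 5 (0.767).

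In several marker lists of other cell types cryoablation 2, 4 and 5 were above the control median. In the macrophage, erythroid, adipocyte and colon epithelium lists control 1 and 5, which help to set the control range, were below all 3. Control 5 was the highest control in the erythroid list. High values were not limited to these 3 tumors. The cryoablation median of the summed CPM was 134 for adipocyte markers, above every control tumor, and 47.3 for erythroid markers (control medians 36.7 and 12.3). It was 1274 for macrophage and 31.7 for colon epithelium markers (control medians 1391 and 23.5). The summed CPM of 7 macrophage markers, all detected, was 2897 in cryoablation 5, 2487 in cryoablation 2 and 1979.8 in cryoablation 4, against 783 to 2319.7 in control tumors, and it was 1482 and 1502 in control 1 and 5. The 7 erythroid markers, of which 6 exceeded 3 counts in some tumor, summed to 175, 142 and 91.6 CPM in cryoablation 5, 2 and 4 and to 6.16 to 74.7 in control tumors, with 34.2 in control 1 and 74.7 in control 5. The 4 adipocyte markers summed to 176, 206 and 162 CPM against 17.6 to 108 in control tumors, with 62.1 and 35.4 in control 1 and 5. The 7 colon epithelium markers summed to 123, 88.3 and 81.4 CPM against 16.0 to 65.8, with 16.4 and 26.7 in control 1 and 5. Neutrophil markers lay between 1.32 and 24.1 CPM in control and 1.55 and 40.9 CPM in cryoablation tumors. They were at 25.7, 33.3 and 13.0 CPM in cryoablation 2, 4 and 5 and at 5.83 and 6.28 in control 1 and 5. T cell markers lay between 15.9 and 85.5 CPM in control and 12.2 and 58.0 in cryoablation tumors, and B cell markers between 0.658 and 9.12 and between 0.179 and 4.92. Fibroblast markers ranged from 2406 to 6770 CPM (median 3090.1) and from 2267 to 3523 CPM, and they were below the control median in all 5 tumors, at 2783 and 2499 in control 1 and 5 and at 2467, 2267 and 2649 in cryoablation 2, 4 and 5. Skeletal muscle markers ranged from 2.38 to 127 CPM and from 3.13 to 51.6. The part of these cells in the results below was not tested.

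Against this background the 2 groups were compared gene by gene with edgeR's quasi-likelihood test over all 13005 genes that passed the filter on low counts. Of the 83 members, 79 passed it. Rpl10l, Rpl3l, Rpl39l and Rpl24 did not. All 79 had a fold change above 1 in the cryoablation group, with a median log2 fold change of 0.64, against -0.0088 for all genes tested. At an unadjusted p under 0.05, 20 of 79 members were higher in cryoablation tumors and 0 were lower. Over all genes, 3.74% were higher and 1.17% lower at the same limit. After Benjamini-Hochberg adjustment over all genes in edgeR, 0 members and 0% of all genes passed 0.05, and the smallest adjusted p of a member was 0.728. DESeq2 gave 39 members and limma voom with sample quality weights 2 members at an unadjusted p under 0.05, and 0 after adjustment in each tool. Over all genes, DESeq2 had 5.17% higher and 1.61% lower at that limit, and voom 4.73% higher and 5.36% lower. With total counts in place of TMM factors, 242 genes (1.86%) were higher and 235 (1.81%) lower over the whole table in edgeR, against 487 and 152 with TMM, and 13 members were higher and 0 lower. In no member, and in 0% of all genes, were the values of the groups apart without overlap.

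The highest values were in 3 cryoablation tumors. For 64 of the 79 members the 3 highest tumors were cryoablation 2, 4 and 5, and for 74 the 5 highest also held control 1 and 5. Cryoablation 5 had the highest CPM for 60 members, cryoablation 4 for 18 and cryoablation 2 for 1, and control 3 had the lowest for 54. With single tumors left out in edgeR, the count of 20 members fell to 0 without cryoablation 4 or 5, to 5 without cryoablation 2, to 7 without control 2, 3, 6 or 8 and to 10 without control 4, 7 or 9. It was 50 without control 1, 61 without control 5 and 56, 58 and 57 without cryoablation 3, 6 and 7. The background moved with it: of all genes, 1.27% to 1.47% were higher without cryoablation 2, 4 or 5, 1.78% to 2.29% without control 2, 3, 4, 6, 7, 8 or 9, and 7.52% to 8.08% without control 1, control 5 or cryoablation 3, 6 or 7. When cryoablation 2, 4 and 5 were left out, 0 members were higher and 0 lower at an unadjusted p under 0.05 in edgeR, where 1.3% of genes were higher and 1.15% lower. The median log2 fold change of the members was then -0.20, and only 2 of 79, Rpl36al and Rpl22l1, were above 0. As these 3 tumors were the highest for most members and came from 1 group, their removal lowers that group's mean by the choice itself, here and wherever values without them are given. Control 1 and 5 were also left out in a further fit, added after the data were seen because they stood apart in the level of the other short genes. They were also the control tumors with the largest share of counts on the members. Their removal thus lowers the control mean by the choice itself, here and where that fit is given below. The median was then 0.12, 78 of 79 members were above 0 and 0 had an unadjusted p under 0.05 in edgeR, where 1.82% of genes were higher and 2.44% lower.

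**Figure D2:**
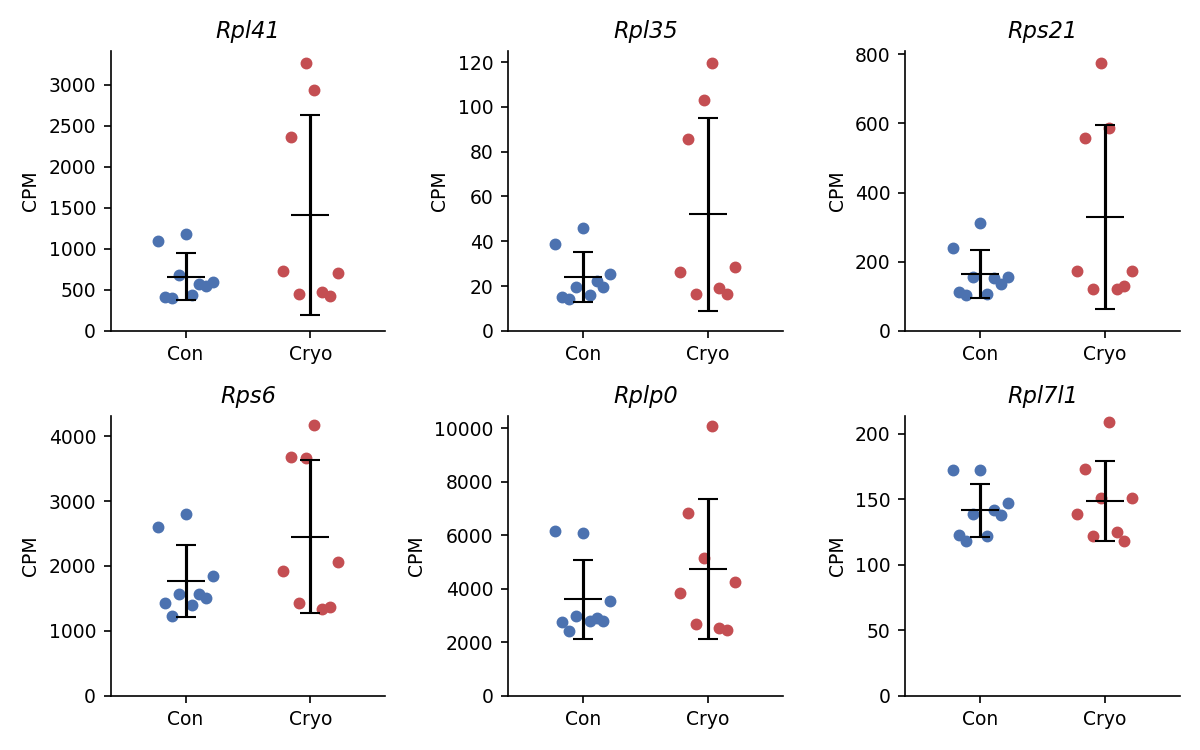
CPM of 6 ribosomal protein genes in each control (Con, blue) and cryoablation (Cryo, red) tumor, with the group mean and SD as a black bar. In Rpl41, Rpl35 and Rps21 the 3 highest cryoablation tumors lie above all control tumors, while the other 5 lie within the control range. Rpl7l1 shows almost the same range in both groups.

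The largest differences were in 4 small proteins. Rpl35, Rpl41 and Rpl38 belong to the large subunit and Rps21 to the small subunit. Rpl35 lies near the exit of the peptide tunnel. In control tumors its CPM was 14.0 at the lowest, 19.7 at the median and 45.8 at the highest, and in cryoablation tumors 16.6, 27.4 and 119.5. Its highest 3 tumors were cryoablation 5, 4 and 2, and the other 5 cryoablation tumors overlapped with the controls. The log2 fold change was 1.11 (SE 0.42), with an unadjusted p of 0.0173 and an adjusted p of 0.728 in edgeR, and the exact permutation p of the group difference was 0.117.

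Rpl41 encodes one of the smallest proteins known. Its reading frame without the stop codon, 75 bases long, is shown with its start codon in capitals (GENCODE M21).
Rpl41: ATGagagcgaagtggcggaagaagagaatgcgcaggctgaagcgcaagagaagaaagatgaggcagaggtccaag
Rpl41 had 404, 576 and 1179 CPM (lowest, median and highest) in control tumors and 424, 718 and 3263 in cryoablation tumors. Cryoablation 4, 5 and 2 were above all controls, followed by control 5 and 1. The log2 fold change was 1.10 (SE 0.43, unadjusted p 0.02 in edgeR, exact permutation p 0.149).

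Rpl38, known from mice with homeotic skeletal changes when it is lacking, had 85.0, 123 and 270.1 CPM in control tumors and 88.7, 151 and 601 CPM in cryoablation tumors. Rps21 had 105, 153 and 313 CPM and 120.4, 174 and 775 CPM. In both, cryoablation 4 was the highest tumor and the lower 5 cryoablation tumors lay among the controls. The log2 fold change was 1.02 (SE 0.42) for Rpl38 and 1.01 (SE 0.40) for Rps21. With Rpl35 and Rpl41 these were the members past the study's own limit, a log2 fold change beyond 1 in either direction at an unadjusted p of 0.05, which 64 genes of the table passed in edgeR. Rpl37a came next with 0.97 (SE 0.38). Without cryoablation 2, 4 and 5, the log2 fold changes were -0.17 for Rpl35, -0.26 for Rpl41, -0.25 for Rpl38, -0.20 for Rps21 and -0.17 for Rpl37a.

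The stalk proteins, which recruit elongation factors, differed in size and in fold change. Rplp0, the long base of the stalk, had 2407, 2887 and 6162 CPM in control and 2472, 4046 and 10067 CPM in cryoablation tumors, a log2 fold change of 0.39 (SE 0.29). Its highest tumors were cryoablation 5 and 2, then control 1 and 5, before cryoablation 4. Rplp1, which binds to it, had 904, 1157 and 2850.1 CPM and 876, 1533 and 5731 CPM, with a log2 fold change of 0.84 (SE 0.42). Rplp2, its partner, had a log2 fold change of 0.87 (SE 0.37) and was the only one of the 3 with an unadjusted p under 0.05 in edgeR (0.0298, exact permutation p 0.146). The tumors overlapped in all 3 genes.

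Rpl5 and Rpl11 form a particle with 5S rRNA that binds Mdm2 when ribosome assembly is disturbed. Rpl5 had 1284, 1473 and 3195 CPM in control and 1316, 2115 and 4129 CPM in cryoablation tumors. Control 5 lay above cryoablation 4 for this gene. Its log2 fold change was 0.34 (SE 0.26). Rpl11 had 533, 726 and 1574 CPM and 572, 1008 and 3366 CPM, with cryoablation 5, 2 and 4 highest, and a log2 fold change of 0.73 (SE 0.36, unadjusted p 0.0597 in edgeR).

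Of the small subunit, Rps6, the substrate of S6 kinase, had 1232, 1561 and 2800.3 CPM in control and 1332, 1988 and 4170.0 CPM in cryoablation tumors. The log2 fold change was 0.47 (SE 0.26, unadjusted p 0.0846 in edgeR). Cryoablation 5, 2 and 4 were highest, and the remaining cryoablation tumors lay among the controls. Rps19 and Rps14, whose loss underlies forms of anemia in humans, had log2 fold changes of 0.80 (SE 0.39) and 0.79 (SE 0.40). Rps3, which lies at the mRNA entry and also has a role in DNA repair, had 0.58 (SE 0.32), and Rps25, used by viral internal ribosome entry, 0.49 (SE 0.27). None of these 5 had an unadjusted p under 0.05 in edgeR, and all 5 were below 0 without cryoablation 2, 4 and 5 (-0.14, -0.27, -0.30, -0.25 and -0.12).

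Rpl10, which matures the large subunit last, had 1186, 1401 and 2959 CPM in control and 1205, 1968 and 4657 CPM in cryoablation tumors and a log2 fold change of 0.38 (SE 0.28). Rpl4 had 1739.9, 2086 and 3975 CPM and 1842, 2824 and 5506 CPM and 0.29 (SE 0.24). In Rpl4 control 5 and 1 stood above cryoablation 4. The smallest fold changes were those of Rpl7l1 (0.071, SE 0.12), Rps10 (0.15, SE 0.14), Rpl7a (0.22, SE 0.19), Rpl7 (0.27, SE 0.22) and Rpl4. Rpl7l1 had 118, 139 and 173 CPM in control and 118, 145 and 209 CPM in cryoablation tumors, so that the groups covered almost the same range. The median log2 fold change was 0.65 over the 48 tested large subunit genes, 12 of which had an unadjusted p under 0.05 in edgeR, and 0.61 over the 31 small subunit genes, with 8. Over all genes tested, 3.74% were higher at that limit.

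Several members have a near relative among the members. The first 90 bases of 2 pairs of reading frames are shown, with the bases that differ within each pair in capitals (GENCODE M21).
Rpl36a: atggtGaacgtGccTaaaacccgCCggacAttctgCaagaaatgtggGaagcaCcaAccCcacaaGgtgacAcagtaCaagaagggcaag
Rpl36al: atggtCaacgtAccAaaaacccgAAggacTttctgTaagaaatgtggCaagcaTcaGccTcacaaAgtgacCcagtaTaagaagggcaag
Rps27: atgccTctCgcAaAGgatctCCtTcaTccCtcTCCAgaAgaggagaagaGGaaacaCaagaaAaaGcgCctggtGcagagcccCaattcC
Rps27l: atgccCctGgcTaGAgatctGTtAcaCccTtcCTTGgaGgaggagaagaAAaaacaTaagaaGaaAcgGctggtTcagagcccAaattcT
Over the whole frames 87.7% of bases were identical in the first pair and 76.2% in the second.

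Rpl36a had 200.2, 260.2 and 642 CPM in control and 225, 365 and 1265 CPM in cryoablation tumors, while Rpl36al, with the same 318 coding bases, had 0.264, 0.658 and 1.16 CPM and 0.362, 1.09 and 2.51 CPM, at a mean of 13.4 counts. The level of Rpl36al was thus far below that of its relative in each tumor, with the highest value again in cryoablation 5. Rps27 had 143, 185 and 440.0 CPM and 163, 255 and 825 CPM, and Rps27l, a p53-induced form, 42.6, 57.9 and 110.0 CPM and 46.9, 64.6 and 196 CPM. Their log2 fold changes were 0.83 (SE 0.36) and 0.57 (SE 0.31).

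Rpl22 had 333, 400.0 and 730.5 CPM in control and 371, 509.6 and 1084 CPM in cryoablation tumors, and its relative Rpl22l1 9.88, 11.98 and 16.6 CPM and 11.3, 14.2 and 20.0 CPM. Rpl22l1 had a log2 fold change of 0.30 (SE 0.14, unadjusted p 0.0525 in edgeR, exact permutation p 0.0584), and 7 of the 8 cryoablation tumors exceeded the median control tumor. Rpl39 had a log2 fold change of 0.56 (SE 0.30) and Rpl3 of 0.32 (SE 0.23). Their tissue-restricted relatives were barely detected. Rpl10l, a testis gene, had 0 counts in all tumors, Rpl39l, also of testis, a mean of 2.53 counts and Rpl3l, of muscle, a mean of 2.71.

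Some ordinary ribosomal protein genes also had few counts. The mean count was under 1000 for 10 of the 83 members, and among those 10 were Rpl35, Rpl13a and Rps10, with 516, 230.1 and 177 counts, beside Rplp0 with 60395. Rpl24 and Rpl23a, chosen after their values were seen, had means of 7.76 and 242 counts. Of the 83 members, 80 shared stretches of 50 bases with transcripts of other genes in GENCODE M21. The median share of a member's transcript was 52.1%, with 98.6% for Rps27. It was 54.5% at the median of the 10 members with few counts and 52.1% in the other 73, and across genes Spearman's rho of mean count and shared share was 0.113. Rpl35 shared 37.6% of such stretches with Gm2000, which had a mean of 686 counts, and Rps27 98.6% with Rps27rt, which had 862. How reads that fit several places were counted is not given in the sources used here, so the levels of single members are uncertain. Per kilobase of coding length, Rpl41 had the mean level 13548, Rplp1 5845 and Rplp0 4343 CPM, while Rpl13a had 25.3 CPM. By FPKM, per listed length, Rplp1 (3747), Rps3a1 (2512) and Rps15 (2472) were highest.

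The relation to length was examined because reads fell on short genes unevenly between tumors. The listed length of the members was between 383 and 6270 bases with a median of 1781, against 4467 for all tested genes, and 55 of 79 were among the shortest 20% of genes. In that class the members had a median log2 fold change of 0.63 with 14 of 55 at an unadjusted p under 0.05, against 0.20 and 9.19% for the other genes. In the next class of 20% it was 0.64 for 17 members against 0.042, then 0.72 for 5 members against -0.021 and 0.77 for 2 members against -0.058. The slope of log2 fold change per doubling of listed length was -0.069 over the members and -0.11 over the other genes. Across the members, Pearson's r of log2 fold change and log2 length was -0.25 (n = 79, Spearman's rho -0.21), and across the other 12926 genes -0.38. Genes are not independent replicates, so no p is given.

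The listed length was often longer than the main transcript. For 48 of 83 members it was at least 2 times as long as the GENCODE M21 transcript, at the median 2.27 times and at most 7.18 times. With the coding length the members' fold change showed a closer relation, with r of -0.67 (rho -0.67, n = 79) against -0.38 in the other genes. The members with at most 300 coding bases had a median log2 fold change of 0.91, and 8 of 10 had an unadjusted p under 0.05 in edgeR. The medians were 0.70 (9 of 29), 0.65 (2 of 18), 0.47 (1 of 15) and 0.34 (0 of 7) with coding lengths of 301 to 450, 451 to 600, 601 to 800 and 801 or more bases. In the same classes the other genes had medians of 0.40, 0.29, 0.15, 0.11 and -0.040, and 20.2%, 15.4%, 7.98%, 5.9% and 1.83% were higher. In each class the members' median was above that of the other genes, and both fell with coding length.

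**Figure D3:**
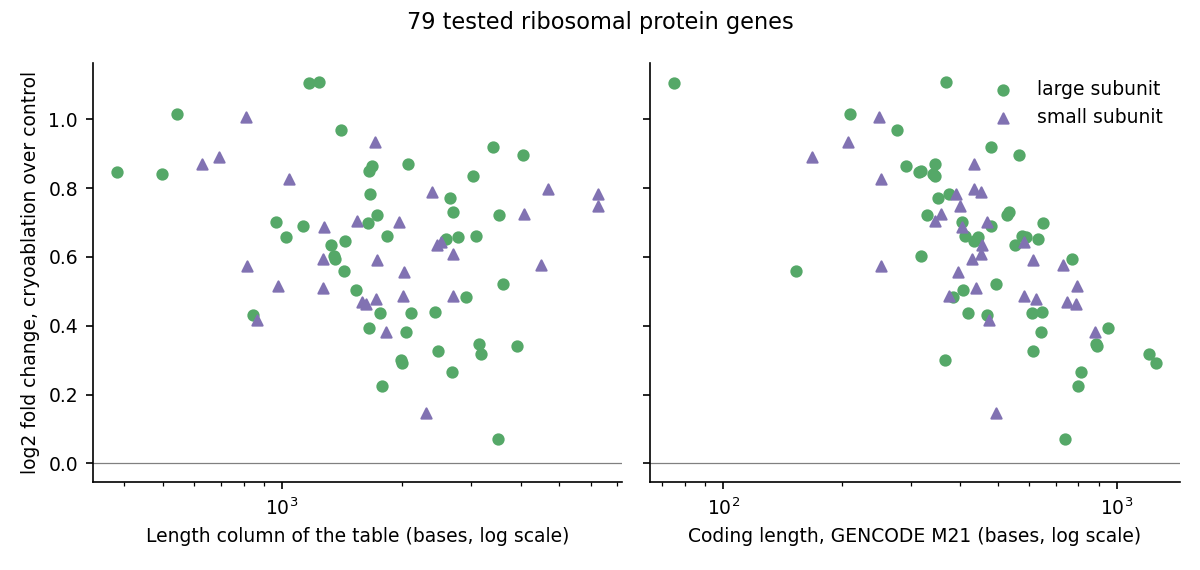
log2 fold change (cryoablation over control) of the 79 tested ribosomal protein genes against the listed length (left) and the coding length (right), both on log axes in bases. Points scatter on the left (r = -0.25) and fall from short to long on the right (r = -0.67), in both subunits.

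**Figure D4:**
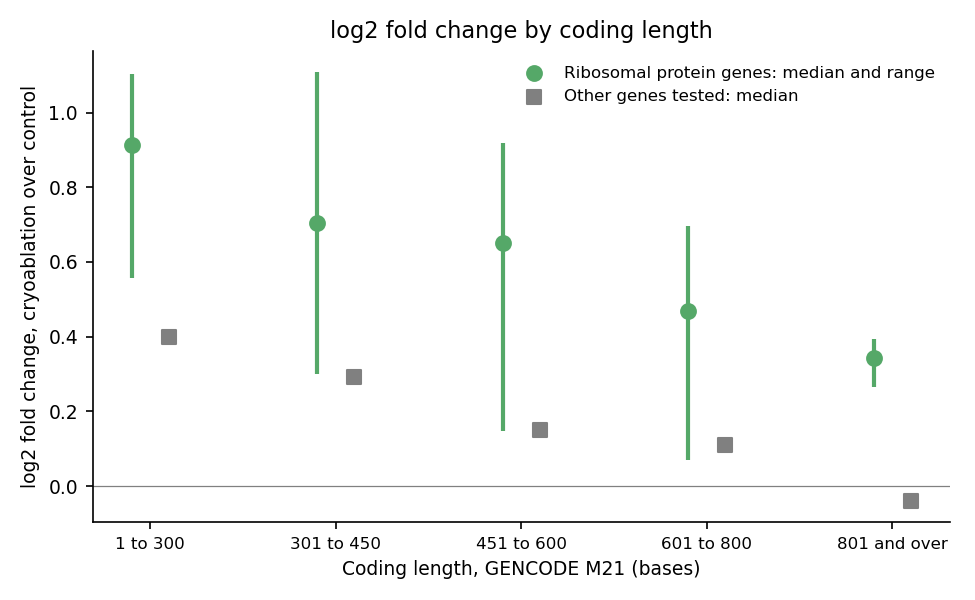
Median log2 fold change of the ribosomal protein genes (green, with a line from the lowest to the highest) and of the other genes tested (grey squares), in 5 classes of coding length in bases. Both fall from the first class to the last, from 0.91 to 0.34 and from 0.40 to -0.040.

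The 5 members of the greatest listed length were Rps15a (6270 bases), Rps24 (6256), Rps19 (4685), Rps3 (4483) and Rps20 (4080), with log2 fold changes of 0.78 (SE 0.35), 0.75 (SE 0.35), 0.80 (SE 0.39), 0.58 (SE 0.32) and 0.72 (SE 0.38). The 5 of the smallest were Rpl36 (383 bases), Rplp1 (499), Rpl38 (542), Rps15 (630) and Rps29 (693), with 0.85 (SE 0.41), 0.84 (SE 0.42), 1.02 (SE 0.42), 0.87 (SE 0.41) and 0.89 (SE 0.39). Each of the 5 shortest by this measure had a larger fold change than each of the 5 longest. Rps15a and Rps24 have 390 and 399 coding bases.

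Within single tumors the relation to coding length was steep in 3 of them. The slope of the members' deviation per doubling of coding length was -0.52 in cryoablation 4, -0.29 in cryoablation 2 and -0.29 in cryoablation 5 (r of -0.66, -0.56 and -0.46 over 79 genes). In control 5 it was -0.097 and in control 1 0.0039, although both had high levels of the members. In the other 12 tumors it lay between -0.095 and 0.088.

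When each tumor's trend over listed length was removed by offsets in edgeR, 19 of 79 members were higher at an unadjusted p under 0.05 and 0 lower, where 4.36% of all genes were higher and 1.08% lower. Their median log2 fold change was 0.35. With offsets for the coding length, an alternative chosen after seeing the data, 6 members were higher and 0 lower, where 3.71% of genes were higher and 1.06% lower, and the median was 0.36. With a covariate for the level of short genes, 3 members were higher and 0 lower, where 2.25% of genes were higher and 1.36% lower, and the median was 0.070. The adjusted p passed 0.05 for 0 members in each of these edgeR fits.

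**Figure D5:**
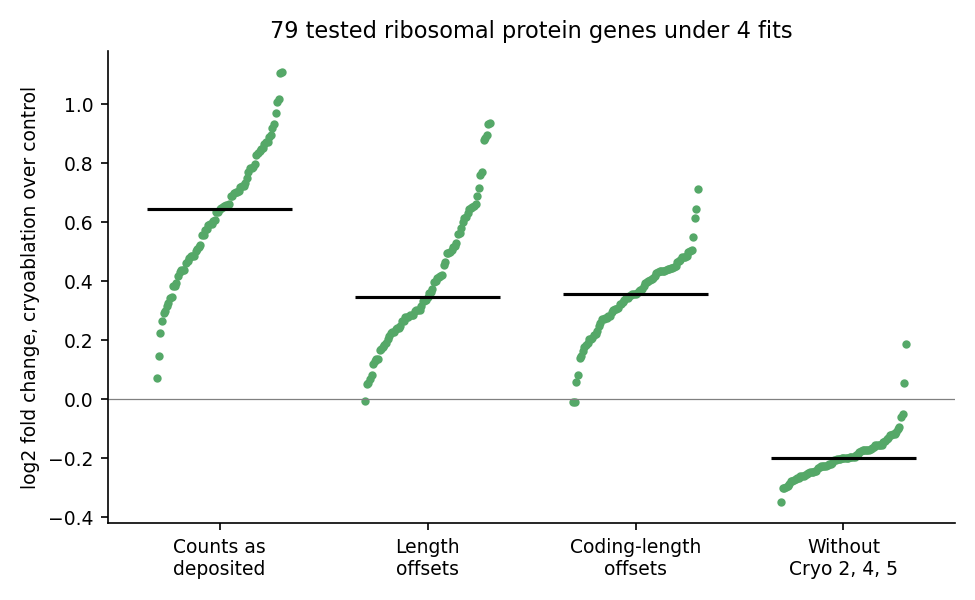
log2 fold change of the 79 tested ribosomal protein genes, sorted within each of 4 edgeR fits, with the median as a black line. The medians are 0.64 with the counts as deposited, 0.35 with listed-length offsets, 0.36 with coding-length offsets and -0.20 without cryoablation 2, 4 and 5.

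Other genes of the translation machinery were described beside the members by their counts and medians. Over all genes tested, 3.74% were higher and 1.17% lower at an unadjusted p under 0.05 in edgeR. Of the ribosomal genes outside the naming rule, Rpsa had a log2 fold change of 0.71 (SE 0.36), Rack1 of 0.25 (SE 0.24) and Fau, which encodes Rps30 in a fusion, of 0.94 (SE 0.40). Fau had an unadjusted p of 0.0292 in edgeR. Of 77 mitochondrial ribosomal protein genes, 11 were higher and 0 lower at that limit, with a median of 0.39, and of 78 nuclear respiratory chain genes, 26 were higher and 0 lower, with a median of 0.62. Both lists hold short genes, with median coding lengths of 588 and 387 bases, against 453 for the members and 1368 for all tested genes. Of 16 other mRNAs with a TOP tract, 0 passed, with a median of 0.17 and a median coding length of 1242 bases. Among these Eef1a1, the main elongation factor, had a log2 fold change of -0.017 (SE 0.13) and Eef2 -0.038 (SE 0.13), while Eef1d had 0.55 (SE 0.31) and Tpt1 0.41 (SE 0.26).

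Of 66 translation factors, 2 were higher and 0 lower, with a median of 0.12, where 3.74% of all genes were higher and 1.17% lower. Of 32 ribosome biogenesis genes 1 was higher (Gar1, 0.48) and 1 lower (Polr1b, -0.22), with a median of 0.069. The regulators Mtor, Larp1 and Myc had log2 fold changes of -0.044 (SE 0.14), -0.096 (SE 0.10) and 0.15 (SE 0.12), and 0 of 13 regulators passed in either direction. Of 38 proteasome genes, 1 was higher and 0 lower, with a median of 0.28. The counts of higher genes in the translation factor, ribosome biogenesis and proteasome lists were near the share over all genes. Without cryoablation 2, 4 and 5 the medians were -0.15 for the mitochondrial ribosomal proteins, -0.19 for the respiratory chain, -0.053 for the other TOP mRNAs, -0.078 for the translation factors, -0.046 for ribosome biogenesis, 0.013 for the regulators and -0.12 for the proteasome, beside -0.20 for the members.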

How the data were processed

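Bulk mRNA of 17 MC38 tumors was sequenced by the authors on a NovaSeq platform. Per the labels, RNA was taken with a column kit and libraries were made with a SMARTER mRNA kit. The authors deposited a raw count of reads per gene and tumor, and FPKM. A check found the latter equal to count over listed length and total count in 100% of 260739 values (tolerance 1%). Samples were grouped by their titles, and 0 columns were left unmapped. The submitters' notes name GRCm38 (mm10). The aligner, counter and strandedness are not given in the sources used here. Table positions equal GENCODE M21 for 512 of 21827 shared genes, so none is printed. No pair of tumors had identical counts.

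Counts were tested with edgeR 4.0.16 (R 4.3.3; TMM, filterByExpr, quasi-likelihood F test, group only), and p-values were adjusted by Benjamini-Hochberg over every tested gene. CPM are scaled by TMM, except for the limit of detection, which was taken from total counts. Standard errors were taken as the log2 fold change over the root of F. Single genes were also tested on log2 CPM (prior count 2) by exact permutation, two-sided, over 24310 splits (smallest p 4.11e-05). Lengths of transcripts and frames came from GENCODE M21, promoters from RefSeq GRCm38.p6. Offsets used natural splines with 4 degrees of freedom per tumor. Alternatives were DESeq2 1.42.0, limma 3.58.1 voom, other scalings and filters, a replicate block, and tumors left out. Scripts were tested on simulated data.

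The members and all lists were chosen with earlier results of these data known. Members were named by role, as relatives of another member, or as the 5 with the greatest and smallest fold change, the 5 with the greatest and smallest listed length and the 3 with the highest FPKM. Depth limits cover counting error only. Same-numbered tumors correlated between -0.51 and 0.64, and 2 of 8 numbers were best with their own, so the numbers were not taken as pairs. One listed gene and the summary of its list are not reported here.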

Additional observations from a re-analysis of the deposited data

How the results depend on the processing

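No member passed an adjusted p of 0.05 in any of the fits run, and 0 were lower at an unadjusted p under 0.05. The count of members that were higher, 20 in edgeR's quasi-likelihood test, was 39 in DESeq2, 2 in limma voom with sample quality weights, 13 with total counts only, 3 with the short-gene covariate, 6 with coding-length offsets (chosen after seeing the data) and 0 without cryoablation 2, 4 and 5, also when control 1 and 5 were left out too. Leaving out single tumors gave 0 to 61 members. Of all genes, 639 had an unadjusted p under 0.05 in either direction, against 1312 in voom, 992 with no filter on low counts, 325 without cryoablation 2, 4 and 5 and 252 to 1388 with single tumors left out. The cause was not tested. The replicate block, fitted on replicates 1 to 8 although the numbers were not taken as pairs, gave 2 members and a median log2 fold change of 0.45. Of all genes, 1.54% were higher and 1.84% lower in that fit.

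The median log2 fold change of the members (0.64) stayed above 0 with single tumors left out (0.40 to 0.79) and was -0.20 without cryoablation 2, 4 and 5. The correlation of log2 fold change with listed length (-0.25) was then 0.11, the difference in share of counts -0.72 percentage points (2.47 with all tumors) and the median of the respiratory chain genes -0.19. In that fit the log2 fold changes were Rpl10 -0.17, Rpl11 -0.22, Rpl13a -0.13, Rpl22 -0.094, Rpl3 -0.14, Rpl35 -0.17, Rpl36 -0.28, Rpl36a -0.20, Rpl37a -0.17, Rpl38 -0.25, Rpl39 -0.16, Rpl4 -0.12, Rpl41 -0.26, Rpl5 -0.16, Rpl7 -0.10, Rpl7a -0.15, Rpl7l1 -0.12, Rplp0 -0.20, Rplp1 -0.35, Rplp2 -0.20, Rps10 -0.060, Rps14 -0.30, Rps15 -0.25, Rps15a -0.19, Rps19 -0.27, Rps20 -0.29, Rps21 -0.20, Rps24 -0.23, Rps25 -0.12, Rps27 -0.17, Rps27l -0.26, Rps29 -0.27, Rps3 -0.25, Rps3a1 -0.18 and Rps6 -0.14. With the short-gene covariate 66 of the 79 tested members were above 0, and the lowest log2 fold change of any member was -0.095. Among the members named by the rules above, those below 0 in that fit were Rpl10 -0.022, Rpl3 -0.019, Rpl4 -0.017, Rpl5 -0.011, Rpl7 -0.010, Rpl7a -0.039, Rpl7l1 -0.069 and Rplp0 -0.030. With coding-length offsets Rpl7l1 had -0.0093 and Rps10 -0.0090. Rpl7l1 had -0.042 with total counts only, -0.013 without cryoablation 2, 4 and 5 and control 1 and 5, and -0.016 to 0.11 with single tumors left out. Members with few counts, such as Rpl36al, allow only wide statements at this depth.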
